A study of Mus musculus with 6 samples.

Results

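The immediate-early response genes are described here in mouse embryonic hearts lacking Hdac3 in part of their cells. They were taken as 10 genes by symbol, Fos, Fosb, Jun, Junb, Egr1, Ier2, Ier3, Btg2, Atf3 and Dusp1, among the 22180 genes named on the array. All 10 were measured, each by 1 array row, so no choice between rows was needed. Hearts were dissected at embryonic day 9.5 from C57BL/6 embryos and pooled for RNA. The Hdac3-Isl1KO group held 3 pools of genotype Hdac3-flox/flox; Isl1-Cre. The Hdac3-flox/flox group held 3 pools with the floxed alleles and no Cre. Both groups thus carry the floxed Hdac3 gene, and since only the first carries Cre, the Isl1-Cre allele itself and the loss of Hdac3 cannot be told apart. Cre is driven by Isl1, a gene of second heart field progenitors, so heart cells of other origins keep Hdac3. How many hearts or litters made up a pool is not given in the sources used, so p-values measure the spread between pools, which may be partly technical.

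Immediate-early genes are switched on within minutes of a growth factor, serum, stretch or stress signal, without new protein synthesis. Kinases of the ERK, JNK and p38 pathways phosphorylate factors that already sit on their promoters, such as SRF with its ETS partners and CREB. The first products are themselves transcription factors, above all the Fos and Jun proteins that pair as AP-1, together with feedback proteins that end the signal. Their transcripts are short-lived. They are also known to respond to tissue dissection and dissociation.

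Promoter sequences give the letters the genes share that their choice did not use. RefSeq promoter windows of build GRCm38.p6, from 250 bases before to 50 after the start site, were available for 8 of the 10 genes. Egr1 and Ier2 had none. The cAMP response element TGACGTCA, the CREB and ATF binding motif, was found in Btg2 and Dusp1, 2 of 8, against 2.03% of 27025 genes with a window. The core of that element, TGACG or CGTCA, is also contained in every full element. It was found in 6 of 8, the 2 above and Fos, Fosb, Junb and Atf3, against 23.0% of all genes. Of a list of other immediate-early genes, 32 had a window, and 18 of them held the core and 2 the full element. The core is thus not particular to the 10 genes. Jun held the variant AP-1 letters TGACATCA, searched on both strands after the other motifs, as did 4.18% of all genes. The AP-1 motif TGACTCA and the CArG box of SRF were found in 0 of the 8 windows and in 5.95% and 1.81% of all genes. Sites farther than 250 bases upstream were not searched, so a count of 0 does not mean that a gene lacks the site. A match is a description of letters, not a bound site. The stretches below are shown because they hold these motifs in the gene with the most negative difference (Btg2), in those with the most positive ones (Fosb, Atf3, Fos) and in genes with differences nearer 0 (Jun, Dusp1). Capitals mark the motifs named above and, in Fos, the TATAAA of its TATA box. All read 5′ to 3′ on the gene's strand, at chr12:85473750-85473869 (plus) for Fos, chr7:19310076-19310135 (minus) for Fosb, chr4:95052243-95052302 (minus) for Jun, chr1:134079286-134079345 (minus) for Btg2, chr17:26508593-26508672 (minus) for Dusp1 and chr1:191183334-191183393 (minus) for Atf3.
Fos: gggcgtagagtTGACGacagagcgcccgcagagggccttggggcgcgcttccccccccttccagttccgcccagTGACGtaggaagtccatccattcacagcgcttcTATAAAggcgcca
Fosb: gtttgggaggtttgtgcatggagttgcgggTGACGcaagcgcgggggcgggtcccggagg
Jun: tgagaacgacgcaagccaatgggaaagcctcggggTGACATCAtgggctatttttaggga
Btg2: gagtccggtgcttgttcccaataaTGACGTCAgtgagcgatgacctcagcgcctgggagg
Dusp1: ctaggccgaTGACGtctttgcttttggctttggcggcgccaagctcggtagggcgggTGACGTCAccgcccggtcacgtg
Atf3: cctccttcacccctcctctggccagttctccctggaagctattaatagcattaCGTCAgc

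Array values are RMA log2 expression values and cannot be set against each other between genes. Medians of the arrays lay between 5.64 and 5.71, and pairs of arrays correlated at 0.980 to 0.989. Least like the rest was replicate 2 of Hdac3-flox/flox (mean correlation 0.982), which is also left out below. Cardiac muscle markers had a mean over 10 genes of 11.50 to 11.54 in Hdac3-Isl1KO pools, against 11.58 to 11.59 in Hdac3-flox/flox pools. Hdac3 itself averaged 9.21 ± 0.10 in Hdac3-Isl1KO pools, against 9.68 ± 0.05 in Hdac3-flox/flox pools (SD, n = 3 each). That difference of -0.47 had no overlap between the groups but missed the threshold (limma adjusted p = 0.0636). It passed when limma's prior variance was allowed to depend on expression level (limma adjusted p = 0.0011). Whether its probes lie inside the deleted exons is not known here. Precision is limited by the number of arrays.

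The comparison asks whether immediate-early genes differ in the heart when Hdac3 is lost from the Isl1 lineage. None of the 10 passed an adjusted p of 0.05 over all genes with limma, against 95 of 22180 genes (0.428%, of which 0.23% higher and 0.198% lower in Hdac3-Isl1KO). At an unadjusted p under 0.05 there were 2 of 10, Btg2 and Atf3, against 14.5% of all genes. Atf3, 1 of 10, was higher in Hdac3-Isl1KO, against 6.57% of all genes, and Btg2, 1 of 10, was lower, against 7.96%. The groups did not overlap for 3 of 10, Btg2, Fosb and Atf3, against 21.8% of all genes. Fosb and Atf3, 2 of 10, lay higher in Hdac3-Isl1KO, against 9.41%, and Btg2, 1 of 10, lay lower, against 12.4%. Differences (log2, Hdac3-Isl1KO minus Hdac3-flox/flox throughout) were above 0 for 7 of 10 genes and below 0 for 3, and 50% of all genes were above 0. The median over the 10 was 0.087, against 9.4e-05 over all genes. Counts of 2 and 3 among 10 genes lie near these shares of the whole array and are not a result about the immediate-early genes.

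**Figure D1:**
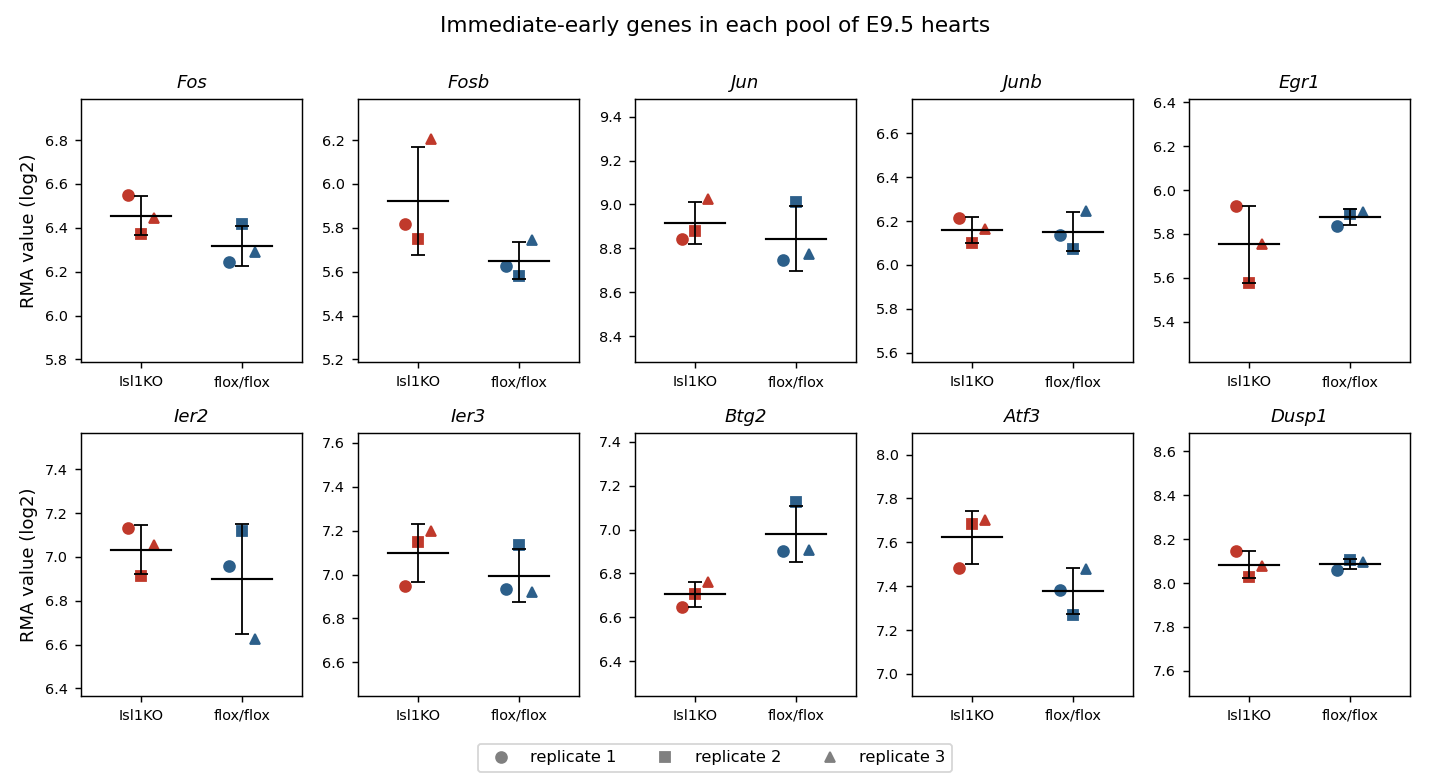
RMA log2 value of each immediate-early gene in each of the 6 pools, Hdac3-Isl1KO at left (red) and Hdac3-flox/flox at right (blue). Points are pools, lines are group means with SD bars (n = 3), and every panel spans the same height on the log2 scale. Btg2, Fosb and Atf3 are the genes whose groups do not overlap.

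Fos, Fosb, Jun and Junb encode subunits of AP-1, in which a Fos protein pairs with a Jun protein through their leucine zippers. All 4 differences were above 0 with all arrays, from 0.0084 for Junb, whose sign turned under other scalings, to 0.27 for Fosb, and 0 of 4 passed with limma. Fos read 6.55, 6.37 and 6.44 in the Hdac3-Isl1KO pools, against 6.24, 6.42 and 6.29 in the Hdac3-flox/flox pools. Its groups overlapped through Hdac3-flox/flox replicate 2, which lay above Hdac3-Isl1KO replicate 2. The difference was 0.14 (95% interval -0.054 to 0.33, limma adjusted p = 0.492). The upper bound corresponds to 1.26-fold, and leaving out Hdac3-Isl1KO replicate 1 gave a difference of 0.092.

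Fosb, a relative of Fos that forms AP-1 with the same Jun partners, had the widest spread of the 10 over the 6 arrays and, nearly tied with Btg2, the largest difference. It read 5.82, 5.75 and 6.20 in Hdac3-Isl1KO, against 5.62, 5.58 and 5.74 in Hdac3-flox/flox. Its mean over the 6 arrays, 5.79, was close to the array's median row of 5.66. The groups did not overlap, but only 0.0047 separated the lowest Hdac3-Isl1KO pool from the highest Hdac3-flox/flox pool. Hdac3-Isl1KO replicate 3 stood above the rest of its group, whose SD was 0.25 against 0.084 in Hdac3-flox/flox. The difference was 0.27, or 1.21-fold (95% interval -0.033 to 0.58, limma adjusted p = 0.396), and it was 0.13 when Hdac3-Isl1KO replicate 3 was left out.

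Jun, the main DNA-binding partner of the Fos proteins, overlapped between the groups through 1 pool. It read 8.84, 8.88 and 9.02 in Hdac3-Isl1KO, against 8.75, 9.01 and 8.78 in Hdac3-flox/flox. Hdac3-flox/flox replicate 2 stood close to the highest Hdac3-Isl1KO pool, and the other Hdac3-flox/flox pools lay below every Hdac3-Isl1KO pool. The difference was 0.071 (95% interval -0.16 to 0.30, limma adjusted p = 0.787). It was 0.017 without Hdac3-Isl1KO replicate 3, 0.021 without Hdac3-flox/flox replicate 1, 0.036 without Hdac3-flox/flox replicate 3 and 0.15 without Hdac3-flox/flox replicate 2. Junb, a Jun relative that can dampen the activity of Jun, read 6.22, 6.10 and 6.17 in Hdac3-Isl1KO against 6.14, 6.07 and 6.25 in Hdac3-flox/flox. Its difference of 0.0084 (95% interval -0.17 to 0.19, limma adjusted p = 0.973) changed sign under 2 other scalings and with some arrays left out, so no direction is given. Its interval spans 1.13-fold lower to 1.14-fold higher.

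Egr1 and Atf3 encode the other transcription factors of the group, and their differences had opposite signs. Egr1, a zinc finger factor induced by ERK signalling and by SRF, read 5.93, 5.58 and 5.75 in Hdac3-Isl1KO, against 5.84, 5.89 and 5.90 in Hdac3-flox/flox. Its mean over the 6 arrays, 5.81, was also close to the array's median row of 5.66. Hdac3-Isl1KO replicates 2 and 3 lay below all Hdac3-flox/flox pools and replicate 1 lay above them. The difference was -0.12 (95% interval -0.36 to 0.11, limma adjusted p = 0.620). It was -0.035 without Hdac3-Isl1KO replicate 2 and -0.21 without Hdac3-Isl1KO replicate 1.

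Atf3, a stress-induced factor of the ATF family, read 7.48, 7.69 and 7.70 in Hdac3-Isl1KO, against 7.38, 7.27 and 7.48 in Hdac3-flox/flox. The groups stood apart by 0.0021, the gap between Hdac3-Isl1KO replicate 1 and Hdac3-flox/flox replicate 3. The means were 7.62 ± 0.12 in Hdac3-Isl1KO and 7.38 ± 0.11 in Hdac3-flox/flox (SD, n = 3 each), a difference of 0.25 or 1.19-fold. The 95% interval of 0.026 to 0.47 did not reach 0. The limma p was 0.0334 before adjustment, and the gene missed the threshold over all genes (limma adjusted p = 0.298). Over the 14 other fits its difference stayed between 0.19 and 0.32 and its limma adjusted p between 0.132 and 0.561.

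Ier2 and Ier3 encode small proteins named for their immediate-early response, and Ier3 is also known as a regulator of apoptosis. Ier2 read 7.13, 6.91 and 7.05 in Hdac3-Isl1KO, against 6.96, 7.12 and 6.62 in Hdac3-flox/flox. Hdac3-flox/flox replicate 3 was the lowest of all 6, and without it the difference of 0.13 became -0.0036. With all arrays the 95% interval ran from -0.18 to 0.45 (limma adjusted p = 0.697). Ier3 read 6.95, 7.15 and 7.20 in Hdac3-Isl1KO, against 6.93, 7.13 and 6.92 in Hdac3-flox/flox. Both groups of Ier3 held low and high pools, and the difference was 0.10 (95% interval -0.13 to 0.34, limma adjusted p = 0.684). It was 0.052 without Hdac3-Isl1KO replicate 3, 0.064 without Hdac3-flox/flox replicate 3, 0.17 without Hdac3-flox/flox replicate 2 and 0.18 without Hdac3-Isl1KO replicate 1.

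Btg2 and Dusp1 encode brakes on growth signalling. Btg2, an antiproliferative protein that binds the CCR4-NOT deadenylase and is also a p53 target, showed the clearest separation of the 10. It read 6.65, 6.71 and 6.76 in Hdac3-Isl1KO, against 6.90, 7.13 and 6.91 in Hdac3-flox/flox. Every Hdac3-Isl1KO pool lay below every Hdac3-flox/flox pool, by 0.14 or more. The means were 6.71 ± 0.06 in Hdac3-Isl1KO and 6.98 ± 0.13 in Hdac3-flox/flox (SD, n = 3 each), a difference of -0.27 or 1.21-fold lower in Hdac3-Isl1KO (95% interval -0.48 to -0.069).

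That separation of Btg2 had the smallest p of the group, 0.0158 unadjusted, and still missed the threshold over all genes (limma adjusted p = 0.237). Without Hdac3-flox/flox replicate 2, its highest pool, the difference was -0.20 (limma adjusted p = 0.375). Over the 14 other fits the difference lay between -0.31 and -0.20 and the adjusted p between 0.0870 and 0.464. Its relative Btg1, of the list of other immediate-early genes, differed by -0.21 (limma adjusted p = 0.375).

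Dusp1, a nuclear phosphatase that switches off p38, JNK and ERK, was the steadiest gene of the 10. It read 8.15, 8.03 and 8.08 in Hdac3-Isl1KO, against 8.06, 8.11 and 8.10 in Hdac3-flox/flox, so all Hdac3-flox/flox pools lay within the range of the Hdac3-Isl1KO pools. The difference was -0.0029 (95% interval -0.16 to 0.15, limma adjusted p = 0.990), and no direction is given because the sign changed with some arrays left out and under quantile normalization. That interval spans 1.12-fold lower to 1.11-fold higher. Btg2 and Dusp1, the genes whose windows held the full cAMP response element, had differences of -0.27 and -0.0029. A relation of motif to difference was not tested.

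**Figure D2:**
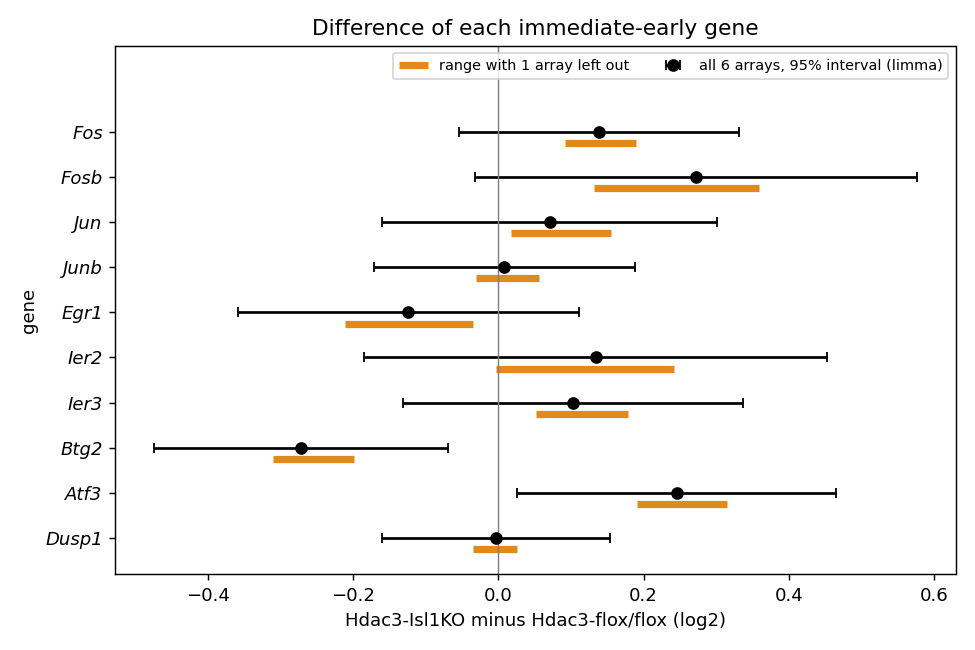
Log2 difference of each gene (Hdac3-Isl1KO minus Hdac3-flox/flox), with its 95% interval from limma (black) and the range of the difference when 1 array at a time was left out (orange). The intervals of Btg2 and Atf3 lie clear of 0, and the orange ranges of Junb, Ier2 and Dusp1 cross it.

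The spread between pools of a group was ordinary for this array. The pooled SD within groups had a median of 0.119 over the 10 genes and of 0.123 over all genes. Among the 10 the pooled SD was smallest for Dusp1, 0.046, and largest for Ier2, 0.19, and Fosb, 0.18. The genes did not peak together in 1 pool. Of the 10, 4 had their highest value in Hdac3-Isl1KO replicate 1 (Fos, Egr1, Ier2 and Dusp1), 4 in Hdac3-Isl1KO replicate 3 (Fosb, Jun, Ier3 and Atf3), 1 in Hdac3-flox/flox replicate 2 (Btg2) and 1 in Hdac3-flox/flox replicate 3 (Junb). The lowest values were also divided over 5 of the 6 pools. The median deviation from each gene's own mean over the 6 arrays was 0.045, -0.045 and 0.073 in the Hdac3-Isl1KO pools and -0.070, 0.054 and -0.031 in the Hdac3-flox/flox pools. These overlap between the groups. Without Hdac3-flox/flox replicate 2 the median difference over the 10 genes was 0.16, with 7 of 10 above 0 and 0 called. It was 0.034 without Hdac3-Isl1KO replicate 3, 0.047 without Hdac3-flox/flox replicate 1 and 0.046 without Hdac3-flox/flox replicate 3.

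**Figure D3:**
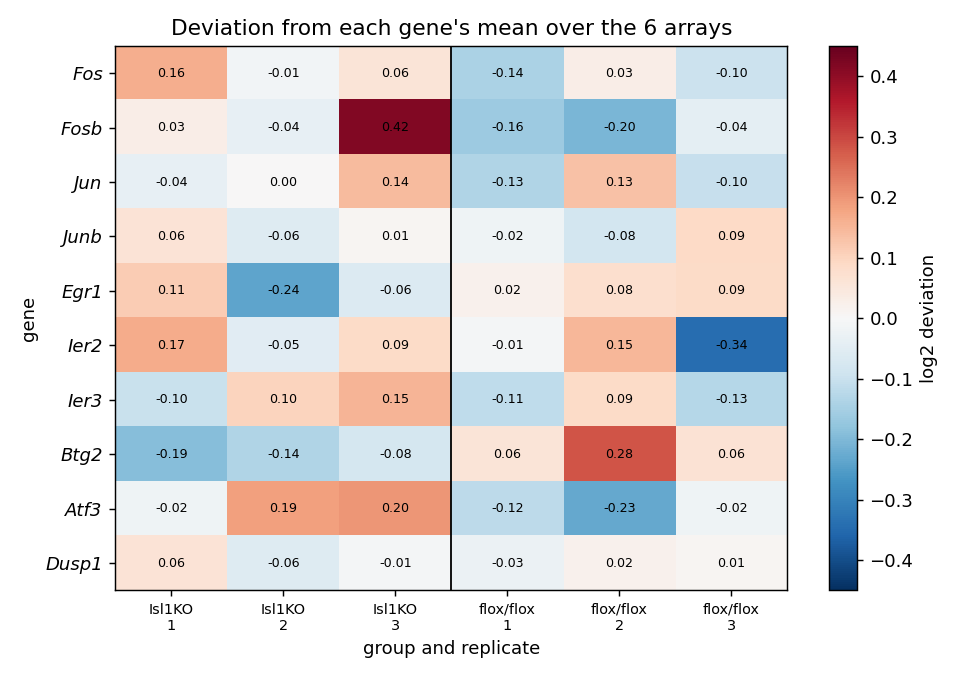
Deviation of each gene from its own mean over the 6 arrays (log2), for the 3 Hdac3-Isl1KO pools at left and the 3 Hdac3-flox/flox pools at right. Red is above and blue below the gene's mean. Btg2 is below its mean in all Hdac3-Isl1KO pools, and no pool is red or blue for all 10 genes.

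Across the arrays Jun and Ier3 had the most alike profiles among the 10, with a root-mean-square difference of 0.053 between their mean-centred log2 values over the 6 arrays. Outside the group, the profile of Fosb, the gene with the largest spread, was most closely matched by Sag, BC147527, Hsd11b1, Il23a and Lonrf3, at root-mean-square differences of 0.028 to 0.045. All 5 were dim, with means of 4.10 to 5.15 over the 6 arrays, below the array's median row of 5.66. Like Fosb, for whose profile they were picked, all 5 were highest in Hdac3-Isl1KO replicate 3. Their limma adjusted p-values lay between 0.363 and 0.539. With 6 arrays and 22180 genes such matches are a description only.

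Other immediate-early genes held no called gene either. Of 39 measured, 25 had differences above 0 and 14 below, with a median of 0.074. With limma 0 passed, and 4 of 39 had an unadjusted p under 0.05, against 14.5% of all genes. The 4 were Zfp36l1, Pim1, Egr2 and Cebpd. Zfp36l1, for a protein that binds AU-rich elements and speeds the decay of early-response transcripts, averaged 9.74 ± 0.07 in Hdac3-Isl1KO pools, against 10.03 ± 0.05 in Hdac3-flox/flox pools (SD, n = 3 each, difference -0.28, limma adjusted p = 0.167). It passed with the level-dependent prior (limma adjusted p = 0.00990) and with genes below the median row left out, which none of the 10 genes did. A dimmer row of it differed by -0.15. Pim1, a cytokine-induced kinase gene, differed by 0.21 (limma adjusted p = 0.240) and Egr2, the Egr1 relative, by 0.20 (limma adjusted p = 0.256). In both the groups did not overlap, with Hdac3-Isl1KO higher, as for 9.41% of all genes. Cebpd, a stress-induced transcription factor gene, differed by -0.40 with overlapping groups (limma adjusted p = 0.301). Egr2 and Cebpd were dim, each with a mean of 5.30 over the 6 arrays, below the array's median row of 5.66. Socs3 (0.32), Tiparp (0.24) and Klf4 (0.17) had limma adjusted p-values of 0.372 to 0.378, and dimmer rows of Socs3 and Tiparp differed by -0.028 and -0.15, with the opposite sign. With 1 array left out, Socs3 ran from 0.19 to 0.48, Tiparp from 0.13 to 0.30 and Klf4 from 0.11 to 0.21.

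Upstream of the group, 20 of 25 listed kinases and promoter-bound factors were measured, and 0 passed. Elk4, an ETS partner of SRF, was the only one at an unadjusted p under 0.05, against 14.5% of all genes. It averaged 6.99 ± 0.04 in Hdac3-Isl1KO pools, against 7.21 ± 0.03 in Hdac3-flox/flox pools (SD, n = 3 each, difference -0.22, limma adjusted p = 0.218). Srf itself differed by 0.20 (limma adjusted p = 0.398), and the kinase genes Rps6ka3 and Mapk9 by -0.24 and -0.21 (limma adjusted p = 0.372 and 0.510). The Mapk9 difference was -0.063 without Hdac3-Isl1KO replicate 3, and that of Srf was 0.12 without the same pool. The list had a median of 0.034. Among 14 other dual-specificity phosphatase and ERK feedback genes, 11 differences were above 0, the median was 0.050 and 0 passed. An unadjusted p under 0.05 was found for 3 of 14, against 14.5% of all genes.

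Within that feedback list the phosphatase genes went both ways. Dusp9, for an ERK phosphatase, averaged 8.37 ± 0.04 in Hdac3-Isl1KO pools, against 8.04 ± 0.08 in Hdac3-flox/flox pools (SD, n = 3 each). The groups did not overlap, the difference was 0.33 or 1.25-fold (limma adjusted p = 0.136), and with the level-dependent prior the limma adjusted p was 0.0150. Dusp9 also passed with genes below the median row left out. Dusp16 and Dusp10, for phosphatases that prefer JNK and p38, differed by -0.24 and -0.21 (limma adjusted p = 0.216 and 0.316), also without overlap. Groups without overlap were found for 21.8% of all genes. Dusp5 differed by 0.18 (limma adjusted p = 0.387). Of 13 other bZIP partners 0 passed and 3 had an unadjusted p under 0.05, against 14.5% of all genes. The 3 were Atf7 (-0.22), Batf (-0.25) and Maf (-0.35), with limma adjusted p-values of 0.218 to 0.283. A dimmer row of Maf differed by 0.048. Atf5 differed by 0.14 (limma adjusted p = 0.410), and the list's median was -0.021.

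**Figure D4:**
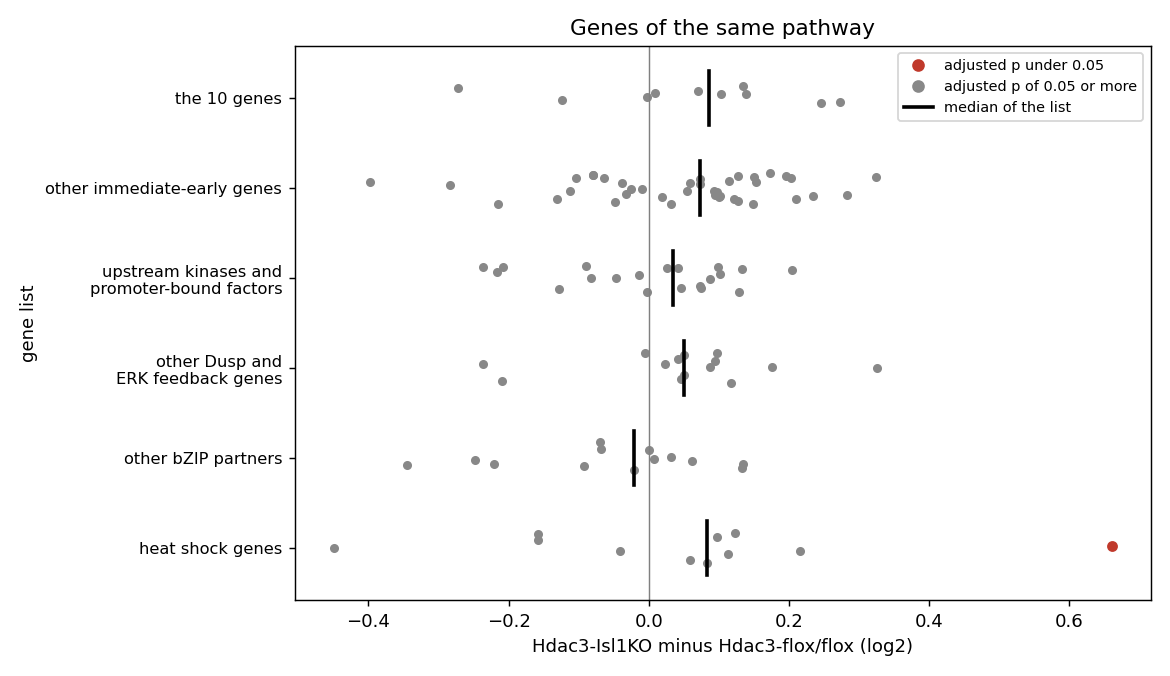
Log2 difference of each measured gene of 6 lists (Hdac3-Isl1KO minus Hdac3-flox/flox), with the median of each list as a black bar. Red marks an adjusted p under 0.05, which 1 gene reached, Hspe1 among the heat shock genes.

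Heat shock genes, which respond to stress alongside immediate-early genes, included the 1 gene of these lists that passed. Hspe1, for the small partner of the mitochondrial chaperonin, read 9.58, 9.34 and 9.38 in Hdac3-Isl1KO, against 8.77, 8.84 and 8.72 in Hdac3-flox/flox. It rose by 0.66 or 1.58-fold (limma adjusted p = 0.0410), with no overlap between the groups. The call was lost with any 1 array left out (limma adjusted p from 0.0970 to 0.164) and with arrays centred on their medians (limma adjusted p = 0.0550). It held with quantile normalization (limma adjusted p = 0.0220), both filters on dim genes, rows averaged per gene, array weights and the level-dependent prior. The difference lay between 0.59 and 0.71 in all of these fits. Hspd1, the large chaperonin partner that shares its promoter region, differed by -0.041, and was named after its value was seen. Hspe1 is known to have processed pseudogenes, and whether probes on this array read them was not tested. The stress-inducible Hspa1a differed by -0.45 with overlapping groups (limma adjusted p = 0.362). Its row was dim, at 4.37 in Hdac3-Isl1KO and 4.82 in Hdac3-flox/flox, below the array's median row of 5.66. Hspa1b of the same list differed by 0.12, with the opposite sign (limma adjusted p = 0.579). Hsph1 differed by 0.22 and Hspa5 by -0.16 (limma adjusted p = 0.255 and 0.359). The list of 11 measured genes had a median of 0.084.

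Markers of other tissues moved between the same pools. Their lists were chosen with earlier results of these data known, so the counts below are a description and not a test. Over 7 trophoblast markers the mean level was 6.92 to 7.08 in Hdac3-Isl1KO pools, against 5.82 to 6.09 in Hdac3-flox/flox pools, with 7 of 7 differences above 0 and 5 called (Prl4a1, Prl7a1, Cyp11a1, Prl3d3 and Psg29). A dimmer row of Cyp11a1 differed by -0.096. With 1 array left out between 1 and 5 of these markers were called. Over 10 hepatic and yolk sac endoderm markers it was 5.86 to 5.89 in Hdac3-Isl1KO pools, against 5.35 to 5.49 in Hdac3-flox/flox pools, with 9 of 10 above 0 and Fgb called. With the level-dependent prior Afp and Alb passed as well (limma adjusted p = 0.0023 and 0.0311). All 8 simple epithelium markers were above 0, at a mean of 6.33 to 6.37 in Hdac3-Isl1KO pools and 5.95 to 6.00 in Hdac3-flox/flox pools, with 0 called by limma and 7 at an unadjusted p under 0.05. With the level-dependent prior Krt8 and Krt18 passed (limma adjusted p = 0.00245 and 0.0124). Epicardial and proepicardial markers ran the other way, at 7.55 to 7.58 in Hdac3-Isl1KO pools, against 8.01 to 8.10 in Hdac3-flox/flox pools, with 7 of 8 below 0 and Upk3b, Aldh1a1 and Upk1b called, of which 0 to 2 passed with 1 array left out. Aldh1a2 of that list passed with the level-dependent prior (limma adjusted p = 0.0129). Megakaryocyte markers were also lower, at 6.17 to 6.29 in Hdac3-Isl1KO pools, against 6.68 to 6.85 in Hdac3-flox/flox pools, with 5 of 5 below 0 and Ppbp called. The calls of Fgb and Ppbp were lost with any 1 array left out. Macrophage markers were at 5.82 to 5.97 in Hdac3-Isl1KO pools, against 5.58 to 5.82 in Hdac3-flox/flox pools. Macrophage, endothelial, erythroid, neural crest and cardiac muscle markers had 0 called genes with limma, and 2, 0, 2, 2 and 2 at an unadjusted p under 0.05. These lists held 8, 10, 6, 7 and 10 measured genes, and 14.5% of all genes had such a p. With the level-dependent prior 2 cardiac muscle (Ttn and Myl7), 2 erythroid (Hbb-bh1 and Hbb-y) and 1 neural crest marker (Ednrb) passed, and 0 macrophage and 0 endothelial ones. In such bulk samples fewer cells of a type and less RNA per cell cannot be told apart. The part of these cell types in the values of Btg2, Atf3 and the other immediate-early genes was not tested.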

How the data were processed

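Gene expression was measured on 6 Affymetrix arrays, 3 pools per genotype, from 100 ng of total RNA per the labels' protocols. The authors deposited log2 values, made with oligo and RMA per the submitters' processing notes. Their versions and the genome build are not given in the sources used. Detection calls and scan dates were not used here. RMA compresses differences of dim rows. Of 41345 rows, 23521 had 1 gene symbol in the platform annotation, and the row with the highest mean was used per gene. Differences were tested over all 22180 genes with lmFit and eBayes of limma 3.58.1, run in R 4.3.3 (two-sided, 4 residual degrees of freedom and 6.92 with the prior, Benjamini-Hochberg adjustment, threshold 0.05). Of these steps, only the limma fit was tested on simulated data. No array pair was identical. Named beside the 10 genes were Hdac3, the 4 genes of each list with the smallest p (8 for other immediate-early genes) and any gene called. The genes most like Fosb were named too. Hspd1 and Hspa1b were named outside this rule. The 10 genes and the 16 lists were chosen with earlier results of these data known. Promoter windows came from RefSeq (GRCm38.p6) and were matched by symbol. Plots were drawn with matplotlib 3.10.9.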

Additional observations from a re-analysis of the deposited data

How the results depend on the processing

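Tried beside the reported fit were quantile normalization, centring of each array on its median, 2 filters on dim genes, averaging of rows per gene, a level-dependent prior variance, array weights, a replicate block, an adjusted p under 0.1, and every array omitted once. In all of them 0 of the 10 immediate-early genes passed with limma, and the median difference over them stayed between 0.034 and 0.16. The count over all genes, 95, was far less stable. It stayed near that at 79 with arrays centred on their medians and 82 with rows averaged per gene. It was 144 with quantile normalization, 235 and 617 without genes below the 25th percentile or the median row, and 866 with the level-dependent prior. With array weights it was 243, at an adjusted p under 0.1 it was 317, and with 1 array left out between 2 and 25. With the replicate block 0 genes passed with limma and 2744 had an unadjusted p under 0.05. The block changed no call on the 10 genes, and Hspe1 had a limma adjusted p of 0.188 with it. The replicate numbers are not said to mark a shared litter or day, so they were not taken as pairs. Deviations from group means correlated at -0.020, -0.078 and 0.034 for arrays sharing a number. For arrays with different numbers these correlations ran from -0.096 to 0.11.

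Signs near 0 turned. Junb became -5.5e-05 with quantile normalization and -0.0048 with centred arrays, and ran from -0.031 to 0.056 with 1 array left out. Dusp1 became 0.036 with quantile normalization and ran from -0.035 to 0.026 with 1 array left out, and Ier2 ran from -0.0036 to 0.24. The other 7 genes kept their sign in every setting. The cause was not tested. The 95% intervals of the 10 genes reached 0.16 to 0.32 either side of the difference. The smallest difference among the genes called on this array was 0.44 in size, larger than that of any of the 10.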
